A study of Arabidopsis thaliana with 8 samples.

Results

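The comparison described here is that of SND2-OV(A) with wild type Arabidopsis thaliana in 8-week-old stems, which takes 4 of the 8 arrays of the series, chosen by their sample titles. SND2-OV(A) is a single homozygous T4 line of Col-0 background that carries the SND2 coding sequence in the vector pMDC32, behind a constitutive promoter. The authors chose it among their lines because the cellulose synthase gene CesA8 was raised in it in a preliminary RT-qPCR, so it is 1 transformation event and not a random sample of such lines. RNA came from the bottom part of the primary inflorescence stem of plants kept under days of 16 h light, and each replicate was a pool of 6 plants of SND2-OV(A) set against a pool of 6 wild type plants on the same 2-colour array. Per the methods, transgenic seed was selected on hygromycin at 20 µg/ml for 2 weeks, whereas the sample labels give 50 µg/ml. Only the 8-week plants were selected per the methods, while the labels also state selection at 4 weeks. The methods describe no selection of wild type, so selection and transgene cannot be told apart in the 8-week ratios. By the methods, selection and age cannot be told apart either where the 2 ages are compared. The 3 biological replicates occupied 4 arrays: replicate 1 was hybridized in both dye orientations, on a Cy3 array and a Cy5 array (named by the dye of the line), replicate 2 on a Cy3 array and replicate 3 on a Cy5 array. The other 4 arrays of the series compare the same genotypes at 4 weeks, from pools of 10 plants, and serve here only as a point of comparison.

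SND2 (NAC073) is a NAC domain transcription factor of fibres. NAC master switches such as SND1 act at the top of a network that turns on secondary wall formation, and SND2 lies below them, together with MYB factors, above the genes that make cellulose, xylan and lignin. The lower inflorescence stem is a common place to study it because its interfascicular fibres and xylem deposit thick secondary walls as the stem matures. The account below goes beyond wall genes, to all probes and to the other functional groups that the annotation names.

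Each value is a normalized log2 ratio of SND2-OV(A) over wild type, so that 1 stands for a doubling and 0.58 for a 1.5-fold difference. All 37685 probes had a ratio on all 4 arrays. A gene was given by the probe annotation for 7440 probes (7234 genes) and only by the study's own lists of called genes for a further 189 probes, which leaves 30056 probes without a name. The 189 probes are known by name because the study selected them on these samples, so their direction is not independent evidence. As the stem is a mixture of tissues, fewer cells of a type and less RNA per cell cannot be told apart. Few defining markers of stem tissues had a named probe: 3 of 9 for xylem, 1 of 10 for phloem, 2 of 7 for green cortex, 2 of 6 for pollen, and 0 of 10 for epidermis, 0 of 6 for dividing cells, 0 of 6 for seed and 0 of 5 for root. The xylem markers IRX1, IRX3 and CESA4, cellulose synthases named by the study's lists, had log2 ratios of 0.64, 0.00 and 1.48, of 0.70, 0.09 and 1.59 and of 0.56, 0.12 and 1.95 in replicates 1, 2 and 3. The phloem marker SWEET11 had 0.66, 0.96 and -0.28. The paper counts the 3 xylem markers among putative SND2 targets, so they cannot gauge the amount of xylem. The green cortex markers differed, RCA with 0.06, 0.19 and -0.08 and LHCB2.3 with 0.87, 0.10 and 2.11. The pollen markers VGD1 and MGH3 had -0.52, 0.25 and -0.29 and 0.07, -0.15 and 0.12. The xylem markers were highest and SWEET11 lowest in replicate 3. The part of tissue makeup in the results below was not tested.

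SND2 itself had the highest mean ratio of any probe. Its log2 ratio was 7.17 and 7.34 on the dye-swapped arrays of replicate 1, 5.23 in replicate 2 and 7.60 in replicate 3, with a mean of 6.69 ± 1.28 (SD, n = 3). The study describes its signal as saturated, which makes these values lower bounds. In limma with Benjamini-Hochberg adjustment over all probes, 0 of 37685 probes (0%) met an adjusted p of 0.05 together with a 1.5-fold difference. The lowest adjusted p over all probes was 0.44, which was also that of SND2. The overexpressed gene itself thus did not pass, so the count of 0 does not show that nothing changed. At an unadjusted limma p under 0.05 there were 1319 probes (3.5%), 495 higher and 824 lower in the line. Everything that follows is therefore a description of levels and of their spread over replicates.

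By mean ratio alone, 172 probes were over 1.5-fold higher in SND2-OV(A) (0.456% of all probes) and 1041 were over 1.5-fold lower (2.76%), together 3.22%. The 3 replicates had one sign for 105 of the 172 and for 648 of the 1041. Over all probes, one sign in 3 replicates was found for 2914 on the higher side (7.73%) and 6891 on the lower side (18.3%). The ratios were not centred, and their medians over all probes were -0.04, -0.07 and 0.00 in replicates 1, 2 and 3. Counts of signs carry these offsets. Among annotated probes, 36 were higher (0.484%) and 126 lower (1.69%), against 3.03% lower among the probes without an annotated gene. Lower probes were thus a larger share of the probes without an annotated gene.

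Probes past 1.5-fold in the same direction on all 4 arrays formed a smaller set, chosen after the values were seen. It held 22 probes that were higher in the line (0.0584% of all probes) and 14 that were lower (0.0372%). Of the 22 higher probes 5 were annotated and 17 were named by the study's lists, and of the 14 lower probes 5 were annotated, 8 were named by the lists and 1 had no name. Their adjusted p in limma lay between 0.44 and 0.99.

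Among the 22 higher probes, AT1G20120, annotated as a putative family II extracellular lipase, had log2 ratios of 2.14, 2.22, 3.15 and 1.71 on the 4 arrays (the Cy3 and then the Cy5 array of replicate 1, replicate 2, replicate 3). MPL1, a lipase first described as induced by the aphid Myzus persicae, had 1.18, 1.53, 0.79 and 1.99. AZI1, a protein of the lipid transfer family with a part in systemic defence priming, had 2.00, 1.77, 0.67 and 0.86. AZI1 was thus highest in replicate 1 on both dye orientations, whereas MPL1 was highest in replicate 3. LTP5, a lipid transfer protein, averaged 1.08 ± 0.21 (SD, n = 3), with its lowest array at 0.82.

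Also among the higher probes, GMI1, named for its induction by gamma irradiation and mitomycin C, had log2 ratios of 1.11, 1.16, 1.16 and 0.82 on the 4 arrays. TIM17-1, a subunit of the protein translocase of the inner mitochondrial membrane, had 0.91, 1.28, 1.21 and 1.33. FDM4, a factor of RNA-directed DNA methylation, was the most even of the set, with 1.14, 1.11, 1.14 and 1.18. These 3 genes ranged by less than 0.5 over the 4 arrays. BIN4, which is needed for endoreduplication, averaged 1.35 ± 0.20, and PLE, a microtubule-associated protein of cytokinesis, averaged 1.06 ± 0.10 (SD, n = 3 each). NAC103, a further NAC factor, averaged 1.02 ± 0.04. HO3, a heme oxygenase of the pathway to the phytochrome chromophore, averaged 0.91 ± 0.31, and AT2G20720, a pentatricopeptide repeat protein, 0.93 ± 0.11. emb1379, named for an embryo defect, averaged 0.80 ± 0.17.

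Of the remaining higher probes, AT5G11410, a protein kinase family member, had log2 ratios of 1.93, 1.88, 1.51 and 1.16. MEE66, named for a maternal effect on embryo arrest, had 1.06, 1.16, 1.12 and 1.34, and its direct neighbour PP2-B2, a lectin of the phloem protein 2 family, had 0.69, 0.68, 0.86 and 0.88. Both neighbours kept their order on every array, MEE66 being the higher. AT4G15700, a glutaredoxin family protein, averaged 0.77 ± 0.24 and AT5G15940, listed as an oxidoreductase, 0.94 ± 0.11 (SD, n = 3 each). AT2G33793 (1.46 ± 0.21) and AT3G25597 (1.00 ± 0.35) are listed as unknown proteins. The probe of AT1G71370 averaged 1.08 ± 0.15, but its identity is uncertain: the study's list gives AT1G71280, a DEAD/DEAH box helicase, for the same spot, and the other probe annotated to AT1G71370 averaged -0.10.

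Among the 14 lower probes, 3 were far below the rest. AT3G01345, listed as an expressed protein, had log2 ratios of -2.26, -2.44, -3.28 and -2.99, MRD1 had -2.07, -1.93, -2.38 and -2.74, and AT3G50380, listed as an unknown protein, had -1.16, -2.55, -2.69 and -2.10. AT3G50380 was the one gene of the 3 on which the dye-swapped arrays of replicate 1 differed by over 1 log2 unit. At 4 weeks the same 3 genes averaged -3.63 ± 0.66, -2.58 ± 0.17 and -2.68 ± 0.14 (SD, n = 3 each).

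The other lower probes had means between -1.36 and -0.68. ERF13, an ethylene-responsive element binding factor, had -0.71, -1.12, -0.82 and -2.34, so that replicate 3 set its mean of -1.36 ± 0.85. RPL15, a protein of the plastid ribosome, had -0.63, -0.74, -1.04 and -1.29. MLP28, an MLP-like protein, averaged -1.26 ± 0.40 and XPO1B, a nuclear export receptor, averaged -0.80 ± 0.08 (SD, n = 3 each). The neighbouring GDA1/CD39 nucleoside phosphatase genes AT1G14240 and AT1G14250 averaged -0.96 ± 0.31 and -1.25 ± 0.31. AT5G02580 averaged -1.32 ± 0.58, AT5G03090 -0.92 ± 0.26 and the non-coding AT2G14878 -0.68 ± 0.06. A probe of HEI10, whose annotated span overlaps that of MRD1, averaged -1.30 ± 0.60, and the probe without a name -1.28 ± 0.42.

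**Figure D1:**
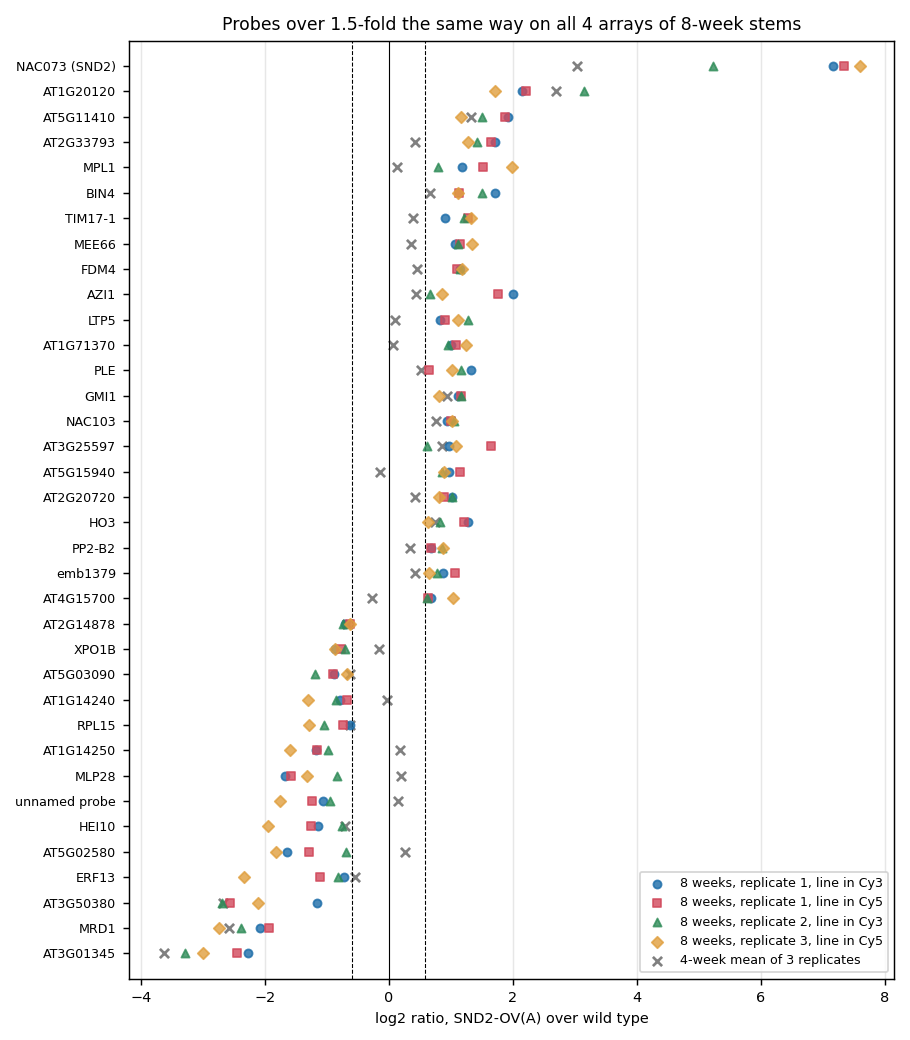
Log2 ratio of SND2-OV(A) over wild type (horizontal axis) for the 36 probes past 1.5-fold the same way on all 4 arrays of 8-week stems, 1 row per probe, with 1 symbol per array and a cross for the 4-week mean of 3 replicates. Dashed lines mark 1.5-fold. SND2 lies between 5.23 and 7.60, and the crosses of AT1G20120, AT3G01345, MRD1 and AT3G50380 lie near or beyond their 8-week values, while those of MPL1, MLP28 and AT5G02580 lie near 0.

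Set beside the 4-week stems, 17 of the 22 higher probes had a positive ratio in every 4-week replicate and 8 were over 1.5-fold there, with a median of 1.08 at 8 weeks and 0.43 at 4 weeks. Without SND2 itself these counts were 16 and 7 of 21 probes. Of the 14 lower probes, 8 had a negative ratio in every 4-week replicate and 7 were over 1.5-fold, with medians of -1.27 at 8 weeks and -0.59 at 4 weeks. The 8-week values chose these probes, so a smaller 4-week value is not a test of age. Of the 753 probes over 1.5-fold with one sign in all 8-week replicates, 30 were also over 1.5-fold the same way with one sign at 4 weeks. The share of all probes that met these marks at 4 weeks is not given here, so the counts do not measure agreement between the ages. In the limma test of the difference between 8 and 4 weeks itself, no probe passed (0%) and the smallest adjusted p was 0.9999. At an unadjusted p under 0.05 the test gave 603 probes (1.6%), 214 with the higher ratio at 8 weeks and 389 with the lower.

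The annotated probes with the largest moderated t for that difference were, on the higher side, AT1G71370, AT4G15700, AT1G49840, AT2G29620 and BGLU33. BGLU33, a family 1 glycosyl hydrolase, had log2 ratios of 0.64, 0.79 and 0.49 in the 8-week replicates and a mean near 0 at 4 weeks. On the lower side were AT5G02580, AT1G14240, XPO1B, AT1G18910 and AT2G39430. AT1G18910, listed as a zinc ion binding protein, had -0.84, -0.53 and -0.85 at 8 weeks. AT2G39430 averaged -0.04 ± 0.10 at 8 weeks and 0.48 ± 0.07 at 4 weeks (SD, n = 3 each), so that its difference came from the 4-week side.

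Several of these genes lie next to each other on the chromosome. In the gene order of RefSeq (assembly TAIR10.1), 7414 genes had a named probe, of which 320 (4.32%) had a mean over 1.5-fold in either direction. Direct neighbours both had a named probe in 2173 pairs, and in 14 of these both genes were over 1.5-fold, 11 pairs in the same direction and 3 in opposite directions. In 7 pairs both genes also had one sign in every replicate. Only 2 of the 14 pairs were among the 2075 pairs in which both genes were annotated, so that the count rests largely on genes the study had listed.

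The pairs included 2 pairs from 1 run of glutaredoxin genes on chromosome 4. AT4G15660 and AT4G15670 had log2 ratios of 1.03, 0.41 and 1.87 and of 0.61, 0.31 and 1.01 in replicates 1, 2 and 3, and AT4G15690 and AT4G15700 had 0.54, 0.46 and 1.21 and 0.66, 0.61 and 1.04. All 4 genes were lowest in replicate 2 and highest in replicate 3. AZI1 and the adjoining EARLI1 averaged 1.14 and 0.77, although EARLI1 was at -0.22 in replicate 2. AT2G38380 and AT2G38390 averaged -1.60 and -0.76, and AT4G27652 and AT4G27654, both listed as unknown proteins, were at 2.90 and 3.27 in replicate 3 but below 0 in replicates 1 and 2. For MRD1 and HEI10, which promotes meiotic crossovers, and for AT3G55910 and AT3G55920, the annotated spans overlap, so that 1 transcript could reach both probes. Likewise tandem copies of a family can share a probe's signal, and the ratios of such neighbours are uncertain as separate measurements.

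Some genes were measured by several probes. Of 139 genes with at least 2 annotated probes, 6 had a probe over 1.5-fold in either direction, and 0 of the 6 had every probe over 1.5-fold the same way. UGT73B4, a UDP-glycosyltransferase, had log2 ratios of -5.10, -1.10 and -0.20 by one probe and of 0.19, 0.20 and 0.31 by the other. The low value of its first probe came from the Cy5 array of replicate 1, which gave -10.04, whereas the Cy3 array of the same RNA gave -0.16. AT3G03700 had means of -1.06, -0.31 and -0.09 by its 3 probes. AT3G48540 had close means of -0.68 and -0.58, the second just short of 1.5-fold.

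Functional groups were formed from the symbols of the annotated probes: 62 groups with 589 probes of 573 genes. Their medians lay close to 0. They ranged from -0.18 to 0.28, 48 of the 62 were within 0.1 of 0, and 26 were above 0 and 36 below. The median of all annotated probes was -0.01, with 47.5% of the probes above 0. In 4 groups the median was above 0 in each of the 3 replicates and in 15 groups it was below 0 in each. At an unadjusted limma p under 0.05 stood 32 of the 589 probes (5.43%), beside 3.8% of all annotated probes. No probe in any group passed after adjustment.

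**Figure D2:**
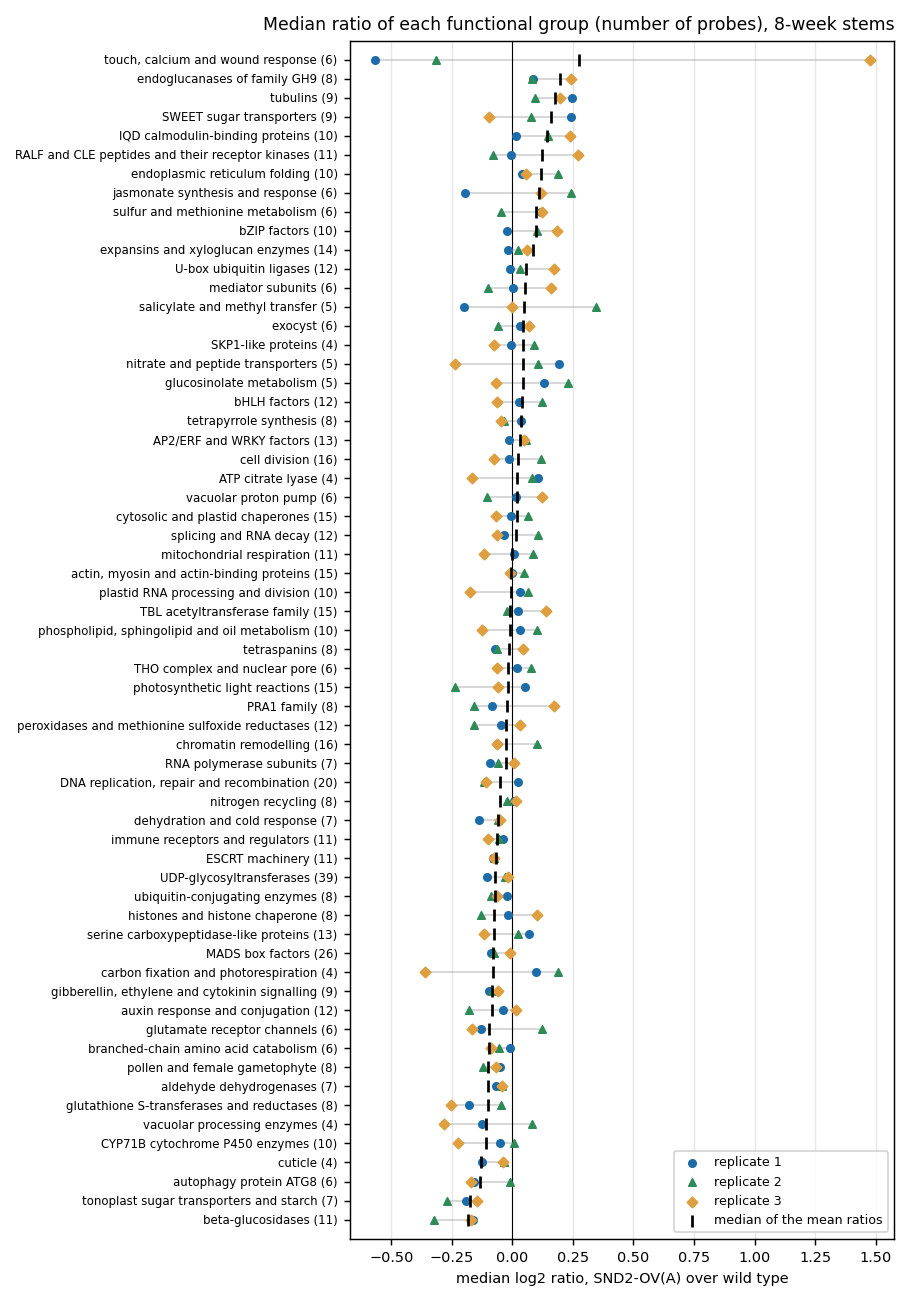
Median log2 ratio of SND2-OV(A) over wild type in 8-week stems (horizontal axis) for each of 62 functional groups, with the number of probes in parentheses. Symbols give the median in each replicate and the black tick the median of the mean ratios. Most groups lie within 0.1 of 0, and the touch, calcium and wound group spans from -0.57 in replicate 1 to 1.48 in replicate 3.

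Carbohydrate stores and vacuolar sugar transport formed one of the lowest groups. All 7 probes of the tonoplast monosaccharide transporters and starch enzymes were below 0 on average, with group medians of -0.19, -0.27 and -0.15 in replicates 1, 2 and 3. Of the 7, 3 were negative in every replicate, against 12.8% of annotated probes. TMT1, TMT3, PWD and SBE2.2 changed sign between replicates. QQS, a species-specific gene that affects starch content, had log2 ratios of -0.60, -1.47 and -0.82, a mean of -0.96 ± 0.45 (SD, n = 3). The tonoplast transporter TMT2 had -0.19, -0.18 and -0.43, and DPE1, a disproportionating enzyme of starch breakdown, had -0.18, -0.53 and -0.15. QQS was the one member past 1.5-fold. At 4 weeks it had -1.31, 0.46 and -1.16, a mean of -0.67 ± 0.98 (SD, n = 3) with 1 replicate of the other sign. The sucrose and hexose exporters of the SWEET family had a median of 0.16, which was 0.24, 0.08 and -0.10 in the 3 replicates.

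Photosynthesis genes showed no common shift. The light reactions had a median of -0.02 over 15 probes, 10 of them below 0. LHCB4.3, an antenna protein of photosystem II, was the exception with -0.49, -0.54 and -1.19, a mean of -0.74 ± 0.39 (SD, n = 3), while its relative LHCB4.2 averaged 0.13. Tetrapyrrole synthesis had a median of 0.04, and its 8 probes all averaged between -0.16 and 0.13. The carbon fixation enzymes PRK and SBPASE were positive in replicates 1 and 2 and at -0.49 and -0.96 in replicate 3. A further marker of green tissue, LHCB2.3, named by the study's lists, ran the other way with 0.87, 0.10 and 2.11.

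Protein folding in the endoplasmic reticulum lay slightly above 0. Of its 10 probes 7 were above 0 and 5 of them had a positive ratio in every replicate, against 10.4% of annotated probes. Within replicate 1 the group median was 0.12 on the Cy3 array and -0.02 on the Cy5 array. BIP1, the main chaperone of the compartment, had log2 ratios of 0.27, 0.23 and 0.59, and the calreticulin CRT1b had 0.41, 0.33 and 0.07. BZIP17 and BZIP28, membrane-bound factors that activate such chaperones, averaged 0.19 and 0.11. The largest of these means, that of BIP1, was 0.36 ± 0.20 (SD, n = 3), well inside 1.5-fold. In the bZIP family as a whole 5 of 10 probes were positive in every replicate. Cytosolic and plastid chaperones had a median of 0.02, with the plastid HSP93-III even at -0.31, -0.32 and -0.29.

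All 6 ATG8 genes, whose products coat autophagosomes, were below 0, with a range of means from -0.19 to -0.10. Of the 6, 4 were negative in every replicate, against 12.8% of annotated probes, and the group median was -0.16, -0.01 and -0.17 in replicates 1, 2 and 3. Within replicate 1 the ATG8 median was -0.33 on the Cy3 array and -0.01 on the Cy5 array. Of the ubiquitin-conjugating enzymes 7 of 8 were below 0, and of the U-box ubiquitin ligases 9 of 12 were above 0, with medians of -0.07 and 0.06. ESCRT genes, which sort membrane proteins into vesicles of the multivesicular body, had a median of -0.08 in each of the 3 replicates. The exocyst, which tethers vesicles at the plasma membrane, had 0.03, -0.06 and 0.07.

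Among amino acid, sulfur and detoxification genes, SIR, sulfite reductase, had log2 ratios of 0.27, 0.20 and 0.50, and UGT74B1, which glucosylates precursors of glucosinolates, had 0.20, 0.23 and 0.65. ALN, allantoinase of purine breakdown, had -0.12, -0.33 and -0.72, and the glutathione S-transferase GSTF3 had -0.56, -0.40 and -0.29. On the arrays of replicate 1, GSTF3 was at -0.06 in Cy3 and -1.05 in Cy5. GSTU26 averaged lower, at -0.62 ± 0.84 (SD, n = 3), but rested on -1.59 in replicate 2. The aldehyde dehydrogenases were below 0 in 6 of 7 probes and the enzymes of branched-chain amino acid catabolism in 5 of 6, with a median of -0.10 for each. The largest of these enzymes' means in size was -0.22, that of ALDH2C4.

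Jasmonate synthesis and response had a median of 0.11 and salicylate and methyl transfer one of 0.05, but the replicate medians were -0.20, 0.24 and 0.12 and -0.20, 0.34 and 0.00, so that neither group kept one sign. Genes of gibberellin, ethylene and cytokinin signalling were below 0 in 8 of 9 probes, with medians of -0.10, -0.08 and -0.06 in the 3 replicates, and genes of auxin response and conjugation in 10 of 12. The auxin-conjugating enzyme GH3.1 had a mean of -0.59 ± 1.15 (SD, n = 3), which came from -1.92 in replicate 2 against 0.04 and 0.10 in replicates 1 and 3. UGT76B1, which glucosylates isoleucic and salicylic acid, had 0.07, 1.27 and 1.45. Its mean of 0.93 came from replicates 2 and 3. OSM34, an osmotin-like defence protein, had -0.14, -0.67 and -1.47. CLE44, the peptide that maintains the cambium, had -0.64, -0.53 and -0.34, a mean of -0.50 ± 0.15.

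Groups of nuclear genes lay near 0. DNA replication, repair and recombination had a median of -0.05, with 16 of 20 probes below 0, and MADS box factors one of -0.08, with 18 of 26 below 0 and 9 probes negative in every replicate, against 12.8% of annotated probes. Cell division had a median of 0.02, and its member TON1B, which organizes cortical microtubules, had 0.45, 0.19 and 0.85. The remodelling factor CHR17 was even, at 0.27, 0.22 and 0.24. The low means of EME1B (-1.40), CHR40 (-1.74) and AGL102 (-0.92) all came from replicate 1, at -4.14, -5.39 and -2.51, with replicates 2 and 3 between -0.46 and 0.41.

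Of the groups related to the cell wall, the expansins and xyloglucan enzymes had a median of 0.08 and the TBL acetyltransferase family one of -0.01. The GH9 endoglucanases had a median of 0.20, with 5 of 8 probes above 0 and 3 below. Within replicate 1 their median was -0.07 on the Cy3 array and 0.18 on the Cy5 array. The highest members were GH9B13 at 0.40, 0.45 and 0.29 and GH9C2 at 0.28, 0.36 and 0.31. The lowest, GH9C3, had -0.09, -0.25 and -0.10. Tubulins had a median of 0.18 and the calmodulin-binding IQD proteins one of 0.14. The beta-glucosidases had a median of -0.18, with 10 of 11 probes below 0 and BGLU33 the exception.

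The other question put to these data was how much of them depends on 1 replicate. For each probe past 1.5-fold, the replicate farthest from the mean of the other pair was left out. On the higher side, 85 of the 172 probes stayed past 1.5-fold and 32 ended at or below 0. The replicate left out was replicate 3 for 96 of them, of which 22 stayed and 29 ended at or below 0. It was replicate 2 for 51, of which 45 stayed, and replicate 1 for 25, of which 18 stayed. Leaving out a replicate that lay against the direction raises the mean, so the 85 include probes of that kind. On the lower side, 188 of the 1041 stayed past 1.5-fold and 122 ended at or above 0. There the replicate left out was replicate 1 for 541 (66 stayed), replicate 2 for 390 (46 stayed) and replicate 3 for 110 (76 stayed). Of the annotated probes, 21 of 36 and 29 of 126 stayed.

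The low side was made largely by the tails of single arrays, which overlapped in part. Of the 828 probes below -1 on the Cy5 array of replicate 1, 94 (11.4%) were also below -1 in replicate 2. Of all 37685 probes, 959 were below -1 in replicate 2. The Cy5 array of replicate 1 had the widest spread of the 4 (SD over probes 1.01, against 0.31 to 0.35 for the others), with 633 probes below -2, of which 428 were below -5, and 3 probes above 2. Those 633 probes had a median of -6.57 there, -0.17 on the dye-swapped array of the same RNA, -0.16 in replicate 2 and -0.12 in replicate 3. They included 541 of the 1041 lower probes, of which 62 stayed over 1.5-fold lower without that array. Replicate 2 had 959 probes below -1, with a median of -1.55 there and medians of -0.19, 0.04 and -0.07 on the other arrays. Of these 959 probes, 819 (85.4%) were below -1 on no other array. They included 462 of the lower probes, with 75 in both sets. That left 113 of the 1041 lower probes outside both sets, 100 of which had one sign in all replicates. Annotated genes were fewer in the tail of the wide array, 9.64% of the 633 probes against 19.7% of all probes. What made these tails was not tested, and intensities were not analysed here.

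**Figure D3:**
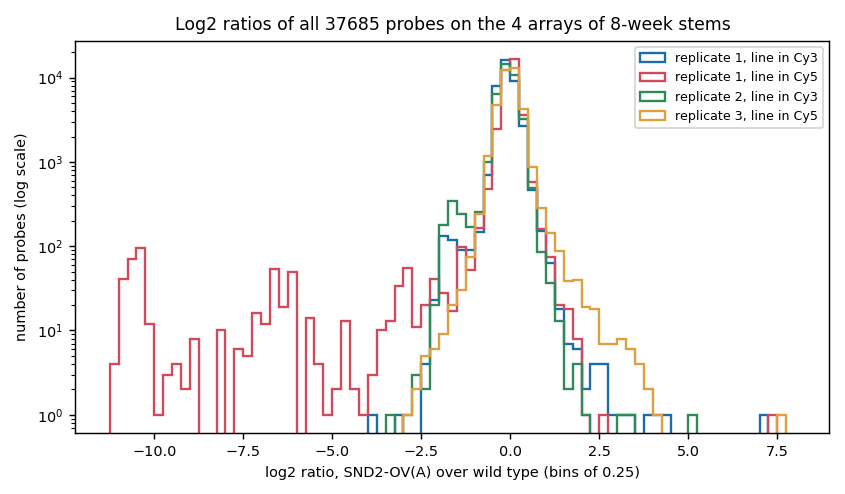
Number of probes (log scale) by log2 ratio of SND2-OV(A) over wild type in bins of 0.25, for the 4 arrays of 8-week stems. The Cy5 array of replicate 1 reaches -11.03, the Cy3 arrays have a shoulder between about -1 and -2, and replicate 3 has the widest side above 1.

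The high side was shared to a larger part between the dye-swapped arrays. Of the 111 probes above 1 on the Cy3 array of replicate 1, 51 (45.9%) were also above 1 on its Cy5 array, and these are 41.1% of the 124 there. Of the probes below -1, 70 of 460 (15.2%) were shared, and these are 8.45% of the 828 below -1 on the Cy5 array. Replicate 3 had 382 probes above 1, of which 341 (89.3%) were above 1 on no other array. Of the 172 probes over 1.5-fold higher on average, 125 were above 1 in replicate 3, and these had medians of 0.55, 0.15 and 1.71 in replicates 1, 2 and 3.

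The annotated probes most above the other replicates in replicate 3 began with ORA47 and AT1G19210. ORA47, an AP2/ERF factor of the jasmonate response, had log2 ratios of -1.65, 0.27 and 3.74, and AT1G19210, an AP2 domain factor, had -1.42, 0.58 and 3.70. The calmodulin-like genes CML37 and CML38 had -0.50, -0.82 and 3.08 and -0.69, -1.22 and 2.65. AT3G02840, listed as an immediate-early fungal elicitor family protein, had -0.15, -0.68 and 3.46. The Cy5 array of replicate 1, which had the dye orientation of replicate 3, gave -1.43 for ORA47, -0.35 for CML37 and -0.42 for CML38. The touch, calcium and wound group had medians of -0.57, -0.31 and 1.48, and its overall median of 0.28 was -0.57 without replicate 3. ABR1, an ERF factor of that group, was the only member positive in every replicate, at 0.14, 0.48 and 0.30.

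Replicate 3 also held the lowest values of some genes. AT3G28220, listed as a MATH domain protein, had log2 ratios of 0.99, -0.55 and -2.48. SWEET13 had 0.46, 0.96 and -1.07, and AT2G22510 had -0.63, -0.38 and -2.22. Replicate 1 was above the others for AT3G15450 (1.72, -0.59 and 0.26), AT4G01700 (1.67, -0.41 and 0.32) and ECS1 (1.57, -0.39 and 0.49). The 6 annotated probes most below in replicate 1, SP1L5 and CHR40 among them, lay between -5.66 and -5.25 there and between -0.23 and 0.61 in the other replicates. Replicate 2 was the low one for SBT4.12, a subtilase, with 0.00, -1.90 and 0.47, and for AT2G24600 with 0.28, -1.51 and 1.91.

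**Figure D4:**
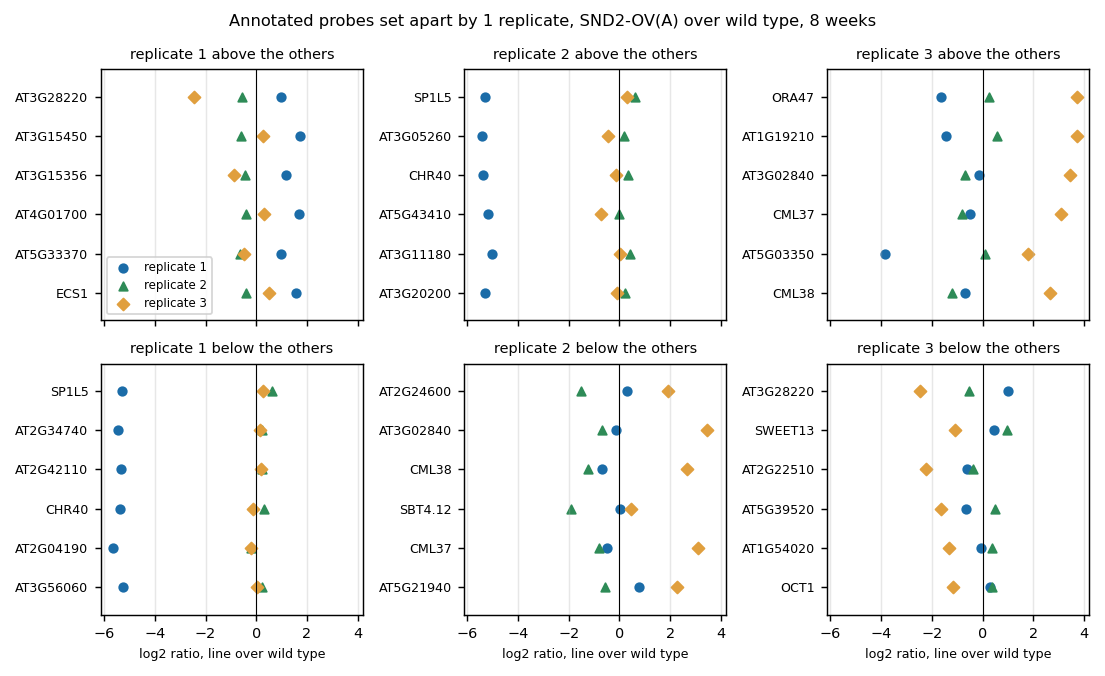
Log2 ratio of SND2-OV(A) over wild type (horizontal axis) in each of the 3 replicates of 8-week stems, for the 6 annotated probes most above and the 6 most below the mean of the other replicates, 1 panel per replicate and direction. Replicate 1 lies near -5 in its lower panel, replicate 3 lies between 1.81 and 3.74 in its upper panel, and the upper panel of replicate 2 shows genes near 0 in replicate 2 that lie near -5 in replicate 1.

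Of the 12 lowest annotated probes with one sign in all replicates, 8 were below -4 in replicate 1, whereas AT3G01345 and AT3G50380 averaged -2.87 ± 0.48 and -2.22 ± 0.43 (SD, n = 3 each). AT1G11765, for example, had log2 ratios of -5.50, -1.73 and -0.17, and AT2G04190 had -5.66, -0.23 and -0.22. AT1G14950 had -3.11, -1.52 and -0.61. The low replicate 1 values of these 3 genes came from its Cy5 array alone. On its Cy3 and Cy5 arrays AT1G11765 had -0.23 and -10.77, AT2G04190 had -0.31 and -11.01, and AT1G14950 had -0.07 and -6.15. The 12 highest included, besides genes named above, AT2G29620 (1.14, 1.32 and 0.50), AT1G73600 (0.54, 1.16 and 0.85), the lipid transfer family gene AT4G22470 (0.68, 0.50 and 1.21) and the palmitoyl protein thioesterase family gene AT4G17470 (1.14, 0.53 and 0.57). AT5G13500 and AT2G28315, both listed as unknown proteins, had their highest value in replicate 3, at 2.42 and 1.38, and 0.07 and 0.46 in replicate 1.

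Repeated spots give the spread between spots within an array, for the few genes that have them. The annotation placed 7 genes at 10 or 11 spots each, and the SD over the spots of 1 gene on 1 array had a median of 0.08, with a range from 0.04 to 0.16. On the Cy5 array of replicate 1 the median SD was 0.09, and on the other arrays 0.06 to 0.09. The lowest of these spots on that Cy5 array was at -0.41, so they do not cover its low tail. AT1G31870, at 10 spots, averaged 0.06 and -0.22 on the dye-swapped arrays of replicate 1, 0.44 in replicate 2 and -0.37 in replicate 3, and AT1G04850 averaged 0.13, -0.11, 0.33 and -0.29. Both genes were positive on the Cy3 arrays and negative on the Cy5 arrays, and TSO1 and AT1G31730 had this pattern too. AT1G69460 and AT2G20760 had the reverse pattern.

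**Figure D5:**
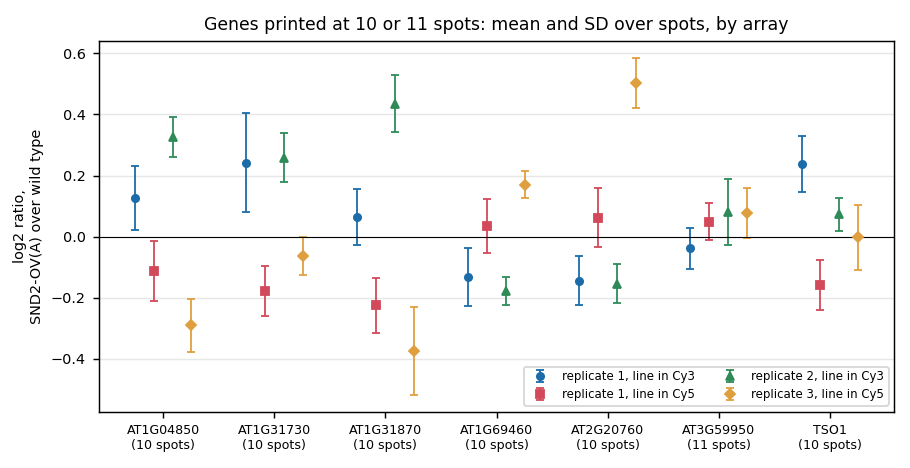
Mean log2 ratio of SND2-OV(A) over wild type (vertical axis) for 7 genes printed at 10 or 11 spots, by array of 8-week stems, with bars for the SD over spots. For AT1G31870 the means are 0.06 and 0.44 on the Cy3 arrays, and -0.22 and -0.37 on the Cy5 arrays.

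Of all 37685 probes, 10267 had signs that followed the dye of the line, 3130 positive in Cy3 and negative in Cy5 and 7137 the reverse. By comparison, 1642 were positive and 3242 negative on all 4 arrays. The medians over all probes were -0.11 and -0.07 on the Cy3 arrays and 0.03 and 0.00 on the Cy5 arrays. All these sign counts carry such offsets. Of the probes that followed the dye, 0 were over 1.5-fold on every array, whereas 36 probes with one sign were. That mark misses smaller patterns, such as AT1G31870 at 0.44 in replicate 2 and -0.37 in replicate 3. The group medians, from -0.18 to 0.28, rest on means over replicates and are not on the scale of these single-array values. By the mean over replicates AT1G31870 was at -0.01 and AT2G20760, the largest of the repeated genes that followed the dye, at 0.10.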

How the data were processed

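Per the methods, stem RNA was hybridized to 2-colour Agilent arrays, scanned, extracted in GenePix Pro and normalized in limma, and the authors deposited one normalized log2 ratio per probe and array. Direction was taken from SND2, the highest probe on each 8-week array in both dye orientations. The ratios were used as deposited, and intensities were not analysed here, so depth over background is unknown. The 2 arrays of replicate 1 hold the same RNA and were averaged, which left 3 replicates, each a pool of plants. The mean ratio was tested against 0 with limma 3.58.1 in R 4.3.3 and adjusted by Benjamini-Hochberg over all 37685 probes, after a test on simulated data. Called probes needed an adjusted p under 0.05 and a 1.5-fold difference. Tables were joined in Python 3.11.15 with pandas 2.3.3 and numpy 2.4.6. The members and lists were chosen with earlier results of these data known, and no list was tested. Named genes were the 12 highest and 12 lowest annotated probes of one sign, 6 per replicate and direction farthest from the other replicates, 5 per direction for the age difference, all members of groups of up to 8 probes and the highest and lowest member of larger ones. Other genes named were chosen after their values were seen. Alternatives were either array of replicate 1, a dye term, centring, scaling, each replicate left out, a robust spread, both ages in one model, averaging per gene and a 2-fold threshold.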

Additional observations from a re-analysis of the deposited data

How the results depend on the processing

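The count of probes passing was 0 and was 0 to 3 without 1 replicate: 3 without replicate 1 (NAC073, MRD1 and AT3G01345), 1 without replicate 2 (NAC073) and 0 without replicate 3. It was 2 with both ages in one limma model (MRD1 and NAC073, adjusted p = 0.0462), and 0 under the other alternatives, whose smallest adjusted p lay between 0.0786 and 0.572. The cause was not tested. Probes over 1.5-fold higher numbered 172, and 179 to 475 without 1 replicate (281, 475 and 179 without replicates 1, 2 and 3). Those of one sign numbered 105, and 166 to 365. Probes over 1.5-fold lower numbered 1041, and 925 to 1597 without 1 replicate, the highest without replicate 3. They numbered 800 with replicate 1 from its Cy3 array and 858 after scaling. Lower probes of one sign numbered 648, and 727 to 1240 without 1 replicate, where one sign in 2 replicates is easier to meet. Their count was 438 with a dye term, where one sign on all 4 arrays was needed, 467 after scaling and 506 after centring. It was 549 with replicate 1 from its Cy5 array. At 2-fold the counts were 33 higher and 461 lower, since fewer probes pass. Centring turned 172 higher and 1041 lower into 203 and 913. Past 1.5-fold on all 4 arrays, 22 higher and 14 lower probes became 28 and 13 after centring, 23 and 11 after scaling and 27 and 27 by the 3 replicates, alternatives chosen after seeing the data. Of the 62 group medians, 35 changed sign under at least 1 alternative, as did 130 of 326 named probes. Replicate numbers did not pair the ages (correlations of deviations -0.0198, 0.123 and 0.156). With the replicate number as a block, 0 probes passed for the age difference (843 at an unadjusted p under 0.05, against 603 without the block). The arrays are few and the ratios carry no signal over background, so dim probes could not be set apart.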
